A study of Mus musculus with 6 samples.

Results

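The oxidative phosphorylation subunits are the nuclear-encoded proteins of the mitochondrial respiratory chain and ATP synthase. They were chosen by gene symbol: the Nduf subunits of complex I with a letter a, b, c, s or v and a number, Sdha to Sdhd of complex II, the Uqcr genes and Cyc1 of complex III, Cycs, the Cox4 to Cox8 subunits of complex IV, and the Atp5 subunits of complex V. The array carried 85 such genes on 108 probes, of 23462 named genes in all. The tests took in 81 of the 85, those brighter than background, by the scanner software's flag, on every array of the untreated group, the PNP group or both. By complex, 37 of 37 entered for complex I, 4 of 4 for complex II, 9 of 9 for complex III, 1 of 1 for cytochrome c, 13 of 17 for complex IV and 17 of 17 for complex V. The symbol rule itself uses no measured value, while the filter uses signal over background.

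The study measured total RNA of TM4, an established line of mouse testicular somatic cells derived from Sertoli cells, the nurse cells of the seminiferous tubule. The untreated group was 3 samples kept without 4-nitrophenol, and the PNP group was 3 samples exposed to 10 µM 4-nitrophenol (PNP), a nitroaromatic breakdown product of organophosphate pesticides and a component of diesel exhaust, for 24 h. Each sample was hybridised to a 1-colour Agilent array. All samples are of a single male line, and the labels do not name separate cultures for the replicates; p-values rest on the spread among these 6 arrays, part of which may be technical.

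Oxidative phosphorylation couples the oxidation of NADH and succinate to ATP synthesis across the inner mitochondrial membrane. Complexes I and II pass electrons to ubiquinone, complex III passes them to cytochrome c, and complex IV passes them to oxygen; complexes I, III and IV pump protons, and complex V uses the gradient to make ATP. Sertoli cells are known for high glycolysis, exporting lactate to the germ cells, while their mitochondria oxidise fatty acids. Many nuclear genes of the chain are known targets of the transcription factors NRF1, GABP and YY1, and nitrophenols are known as weak acids that can carry protons across the membrane.

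The promoters of 5 members are shown, because their letters were searched for the motifs of those factors: Ndufa8 and Cox7b have the smallest p-values among the members for PNP, Cycs and Uqcr11 hold an NRF1 motif, and Ndufs4 holds a YY1 motif. Each is 300 bases, 250 before and 50 after the gene's start, 5′ to 3′ on the gene's strand, from RefSeq on GRCm38.p6. Capitals mark a motif on either strand. The windows are chr2:36049289-36049588 (minus strand), chr6:50566520-50566819 (minus), chr10:80406772-80407071 (minus), chr13:114388045-114388344 (minus) and chrX:106015450-106015749 (plus).
Ndufa8: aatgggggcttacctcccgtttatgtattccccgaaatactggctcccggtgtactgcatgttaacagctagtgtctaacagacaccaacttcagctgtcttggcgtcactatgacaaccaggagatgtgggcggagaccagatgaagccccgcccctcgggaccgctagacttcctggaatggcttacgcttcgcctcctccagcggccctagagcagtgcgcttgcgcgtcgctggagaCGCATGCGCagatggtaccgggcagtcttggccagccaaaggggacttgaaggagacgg
Cycs: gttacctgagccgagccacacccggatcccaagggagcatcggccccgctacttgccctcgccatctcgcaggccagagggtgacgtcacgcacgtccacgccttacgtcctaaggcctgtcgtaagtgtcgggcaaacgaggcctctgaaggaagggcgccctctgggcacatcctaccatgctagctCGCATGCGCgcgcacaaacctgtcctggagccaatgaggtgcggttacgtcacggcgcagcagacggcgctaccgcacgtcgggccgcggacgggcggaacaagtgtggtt
Uqcr11: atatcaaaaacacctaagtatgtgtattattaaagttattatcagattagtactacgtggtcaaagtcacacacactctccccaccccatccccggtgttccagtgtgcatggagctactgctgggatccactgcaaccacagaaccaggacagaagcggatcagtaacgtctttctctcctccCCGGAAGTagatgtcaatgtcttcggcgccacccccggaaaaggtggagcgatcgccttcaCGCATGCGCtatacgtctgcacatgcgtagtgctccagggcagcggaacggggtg
Ndufs4: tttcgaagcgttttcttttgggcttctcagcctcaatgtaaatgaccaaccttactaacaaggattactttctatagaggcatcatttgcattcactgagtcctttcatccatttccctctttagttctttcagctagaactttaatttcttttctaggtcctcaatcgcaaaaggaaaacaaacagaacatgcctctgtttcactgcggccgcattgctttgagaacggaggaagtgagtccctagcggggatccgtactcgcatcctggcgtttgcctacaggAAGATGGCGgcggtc
Cox7b: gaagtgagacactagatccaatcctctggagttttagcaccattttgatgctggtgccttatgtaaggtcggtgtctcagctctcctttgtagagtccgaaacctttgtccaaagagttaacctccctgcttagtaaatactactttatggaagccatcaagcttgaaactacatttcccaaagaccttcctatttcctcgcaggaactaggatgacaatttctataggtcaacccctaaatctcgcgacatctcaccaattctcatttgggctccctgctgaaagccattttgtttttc
Of the 85 members, 68 matched the promoter table, with 73 promoters. The NRF1 letters GCGCATGCG stood in 9 of the 73 (12.33%), against 1.75% of all 32851 promoters of that length. The YY1 letters AAGATGGCG stood in 7 (9.589%), against 1.403% of all, and the ETS letters bound by GABP, CCGGAAGT, in 5 (6.849%), against 3.887%. Both strands were searched, and Uqcr11 holds 2 motifs at separate places. None of the 3 stood in 53 of the 73 member promoters (72.6%) and in 93.31% of all promoters. In Ndufa8 the NRF1 match begins 9 bases before the start, in Cycs 61 and in Uqcr11 5. In Ndufs4 the YY1 match begins at base 286 of the 300, after the start. In the Cox7b window none of these letters was found. A match is a description of the letters and says nothing of binding in these cells.

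The arrays carried 56605 probes, of which 47.8% to 57.8% were well above background on an array, and no spot was saturated. Signals are given as log2 of the processed signal minus the array's 75th percentile, so a signal of 0 equals that percentile; levels of different probes are not comparable. The file headers place the arrays on 3 slides at positions 1 and 2: untreated 1 and untreated 2 on slide 1, untreated 3 and PNP 1 on slide 2, and PNP 2 and PNP 3 on slide 3. Slides 1 and 3 each held 1 group, so slide and group can be told apart only on slide 2. There untreated 3 lay at position 1 and PNP 1 at position 2, so their difference also holds array position. Of 14 Sertoli markers, 11 were well above background on all 6 arrays, among them Sox9, Wt1 and Gata4, while Amh, Cldn11 and Fshr were above it on none. None of the 5 measured Leydig markers was above background on any array, and 4 of 4 peritubular myoid markers (Acta2, Myh11, Des, Cnn1) were. Of germ cell markers 2 of 7 were above it on all arrays (Sycp3, Prm2), of macrophage markers 2 of 4 (Csf1r, Cd68), and of endothelial and erythroid markers 0 of 3 each. In bulk RNA, fewer cells of a kind and less RNA per cell cannot be told apart.

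The comparison of PNP with untreated asks how 4-nitrophenol changes expression in TM4 cells. No subunit of the chain was called in either direction. The limma test with Benjamini-Hochberg adjustment over all 21476 units (13536 named genes and 7940 transcripts without a symbol) called 0 of 81 members at an adjusted p under 0.05, and 0% of all units. At an unadjusted p under 0.05, 2 members were higher with PNP (Cox7b and Ndufa8) and 0 lower, against 9.93% of all units (1541 higher and 591 lower). The groups did not overlap for 5 members, 3 higher and 2 lower with PNP, against 15.2% of all units. Both shares of the members lie below the background.

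By sign, 54 of the 81 members were lower with PNP and 27 higher, where 53.5% of all units were lower. Under quantile normalization 46 of the 81 members and 52.5% of all units were lower. The members' median log2 fold change was -0.089, and that of all units -0.029. The members' median was -0.046 under quantile normalization, -0.027 with the percentile over bright probes and 0.094 with slide as a fixed block. That block sets PNP 1 at position 2 against untreated 3 at position 1. By complex, the median under the 75th percentile was -0.031 in complex I, -0.070 in complex II, -0.11 in complex III, -0.13 in complex IV and -0.11 in complex V. Single values ran from -0.41 for Cox5a to 0.75 for Ndufa8, and 3 members differed by more than 0.5 on the log2 scale. The 95% confidence interval lay within a factor of 2 in either direction, that is within 1 on the log2 scale, for 76 of 81 members (93.8%) and for 70.1% of all units. The median half-width of the interval was 0.52 on the log2 scale. These intervals treat the arrays as independent and hold no slide term, although slides 1 and 3 each held 1 group. Data were simulated with 3 arrays a group, independent noise and no slide or position effect, with changes placed on random units. There, 0.8% of changes of 0.5 on the log2 scale, 20.6% of changes of 1 and 96.4% of changes of 2 were called. Small changes were thus mostly missed in the simulation, and the members were not simulated apart.

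**Figure D1:**
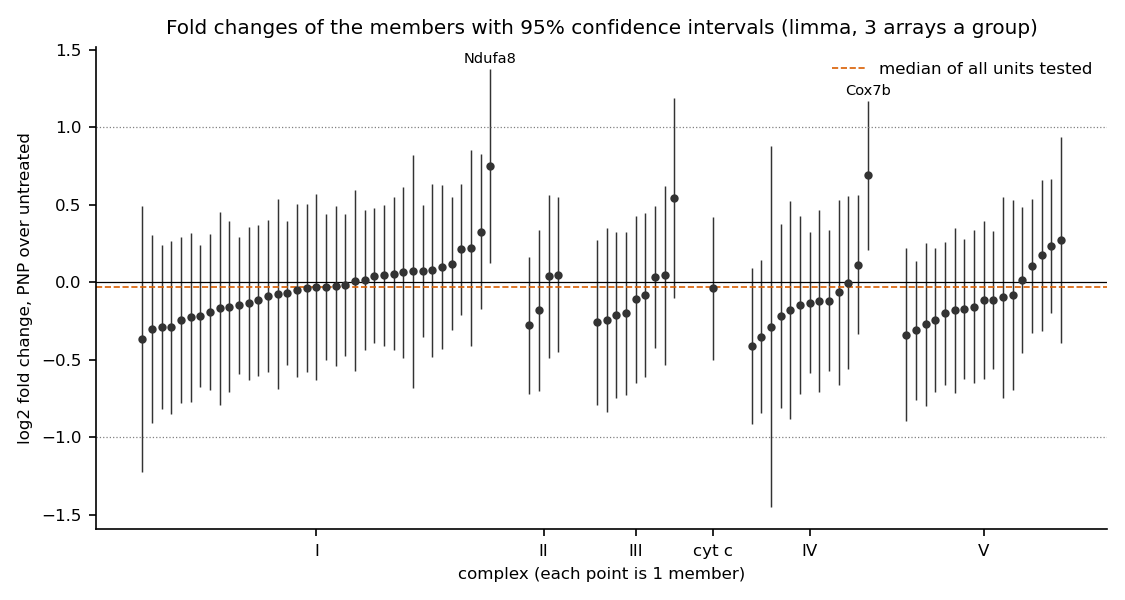
Log2 fold change, PNP over untreated, of the 81 members by complex (points) with limma's 95% confidence intervals (lines); the dashed line is the median of all 21476 units, and the dotted lines mark 1 on the log2 scale in either direction. Ndufa8 (0.75) and Cox7b (0.69) are named because their intervals do not reach 0.

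Complex I, the NADH dehydrogenase, had 37 members measured, 15 with a positive and 22 with a negative fold change. Complexes were assigned by symbol, so Ndufa4, now assigned to complex IV, and its paralog Ndufa4l2 are counted with complex I. Ndufa8, an accessory subunit on the intermembrane-space side, gave 2.64, 2.78 and 3.45 on the untreated arrays and 3.40, 3.77 and 3.96 on the PNP arrays. The groups overlapped, since untreated 3 stood above PNP 1. Its fold change was 0.75 ± 0.27 (log2, SE, n = 3 per group; limma adjusted p = 0.419). Within slide 2, PNP 1 minus untreated 3 was -0.06. Its signal was lowest on slide 1, higher on slide 2 and highest on slide 3. It passed the threshold in 1 of the alternatives, array weights (adjusted p = 0.0397; 0.0397 to 0.999 over the alternatives).

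Ndufs4, an accessory subunit whose loss causes a fatal encephalopathy in mice, gave 2.72, 2.92 and 3.25 untreated and 3.39, 3.12 and 3.36 with PNP. PNP 2 lay inside the untreated range, and the fold change of 0.33 ± 0.22 (log2, SE) had an adjusted p of 0.654 by limma. Ndufb7, on the intermembrane-space side of the membrane arm, gave 6.14, 6.20 and 5.66 untreated and 5.61, 5.56 and 5.95 with PNP, with overlapping groups and a fold change of -0.29 ± 0.23 (log2, SE). Ndufv2, an iron-sulphur subunit of the NADH-oxidising module and named here after its values were seen, was the complex I member whose groups did not overlap, at 4.31, 4.39 and 4.31 untreated and 4.50, 4.55 and 4.60 with PNP. The difference of 0.21 was small and had a limma adjusted p of 0.728.

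Complex II, succinate dehydrogenase, is shared by the chain and the citric acid cycle. Sdhd, a membrane anchor, gave 2.48, 2.69 and 2.48 untreated and 2.36, 2.14 and 2.31 with PNP; the groups did not overlap, and the fold change was -0.28 ± 0.19 (log2, SE; limma adjusted p = 0.669). Sdhc, the other anchor, gave 3.42, 3.78 and 3.21 untreated and 3.15, 3.21 and 3.50 with PNP, with overlapping groups. The catalytic flavoprotein Sdha gave 2.84, 3.05 and 2.67 against 2.78, 2.75 and 3.18. The iron-sulphur subunit Sdhb gave 5.06, 5.31 and 4.71 against 5.05, 4.88 and 5.26. For these latter genes the fold changes were -0.18 (Sdhc), 0.05 (Sdha) and 0.04 (Sdhb), each smaller than its SE of 0.22 or 0.23. The second probes of Sdha and Sdhb gave the opposite sign, at -0.11 (Sdha) and -0.22 (Sdhb).

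Complex III, the cytochrome bc1 complex, had 3 members with positive and 6 with negative fold changes. Uqcrfs1, the Rieske iron-sulphur protein, gave 1.05, 1.14 and 1.93 untreated and 1.73, 1.81 and 2.21 with PNP, a fold change of 0.54 ± 0.28 (log2, SE; limma adjusted p = 0.564). As for Ndufa8, untreated 3 stood with the PNP arrays, and PNP 1 minus untreated 3 on slide 2 was -0.20. Uqcrh, the hinge protein, gave 5.68, 6.00 and 5.31 against 5.30, 5.36 and 5.55, and Cyc1, the c-type haem subunit, gave 5.93, 6.08 and 5.41 against 5.23, 5.59 and 5.86. Their groups overlapped, with fold changes of -0.26 (Uqcrh) and -0.24 (Cyc1). Cycs, cytochrome c itself, which also triggers caspase activation when released, gave 4.32, 4.24 and 4.49 untreated and 4.52, 4.21 and 4.21 with PNP. Its fold change was -0.04 ± 0.20 (log2, SE), and its second probe gave 0.30, the opposite sign. Cyct, the testis form of cytochrome c, was above background on 0 of 6 arrays.

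In complex IV, cytochrome c oxidase, 11 of the 13 measured members had a negative fold change and 2 a positive one. Cox7b, a small membrane subunit, gave 2.82, 2.47 and 2.99 untreated and 3.51, 3.42 and 3.42 with PNP. All PNP arrays stood above all untreated arrays, and on slide 2 PNP 1 exceeded untreated 3 by 0.53. The fold change was 0.69 ± 0.21 (log2, SE, n = 3 per group), with an unadjusted p of 0.0104 and a limma adjusted p of 0.333. It passed the threshold in 1 of the alternatives, normexp background correction with array position as a block (adjusted p = 0.0481; 0.0481 to 0.919 over the alternatives).

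Cox5a, a matrix-side subunit, gave 5.83, 5.71 and 5.38 untreated and 5.42, 5.24 and 5.02 with PNP, a fold change of -0.41 ± 0.22 (log2, SE; limma adjusted p = 0.575). The groups overlapped, since PNP 1 stood above untreated 3, its partner on slide 2. Cox7c, a small membrane subunit, gave 3.38, 3.46 and 3.04 against 3.13, 2.75 and 2.96, also with overlapping groups and a fold change of -0.35 ± 0.22 (log2, SE).

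Several complex IV subunits come as isoform genes that tissues use differently. Cox4i1, the ubiquitous form of the regulatory subunit IV, gave 7.33, 7.47 and 6.73 untreated and 6.94, 6.98 and 7.42 with PNP. Cox4i2, known from lung and as hypoxia-induced, was above background on all 6 arrays at 1.10, 1.18 and 1.07 against 0.83, 0.94 and 1.22. Cox6a1, the liver-type subunit VIa, gave 6.54, 6.73 and 6.02 against 6.17, 6.12 and 6.56. The heart and muscle forms were also above background on all 6 arrays: Cox6a2 at 0.95, 1.11 and 0.30 against 0.63, 0.52 and 0.85, and Cox7a1 at -0.50, -0.10 and -1.24 against -0.78, -1.04 and -0.55. Beside them, 3 of 5 muscle markers (Myh7, Myh6 and Tnnt2) were above background on all 6 arrays and Ckm on none; their part in these levels was not tested.

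Cox7a2, the liver-type partner of Cox7a1, gave 5.46, 5.67 and 5.41 against 5.51, 5.24 and 5.40. Cox7a2l, which takes part in supercomplex assembly, gave 6.38, 6.50 and 5.92 against 6.16, 6.07 and 6.57. Cox8a, the ubiquitous subunit VIII, gave 5.47, 5.72 and 4.87 against 5.07, 4.99 and 5.35, and Cox6b1, the somatic subunit VIb, gave 3.18, 3.31 and 3.12 against 3.35, 3.16 and 3.44. The groups overlapped for every one of these isoform genes, and their fold changes lay between -0.22 (Cox8a) and 0.11 (Cox6b1), none beyond its SE of 0.20 to 0.31.

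Other isoform genes were not well above background. Cox6b2, the testis form of subunit VIb, was well above it on 1 of 6 arrays, untreated 3. Cox7b2 and Cox8c, known from testis, and Cox8b, known from heart and muscle, were above it on 0 of 6 arrays. These 4 genes were thus not well above background in either group as a whole, and no fold change is given for them.

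**Figure D2:**
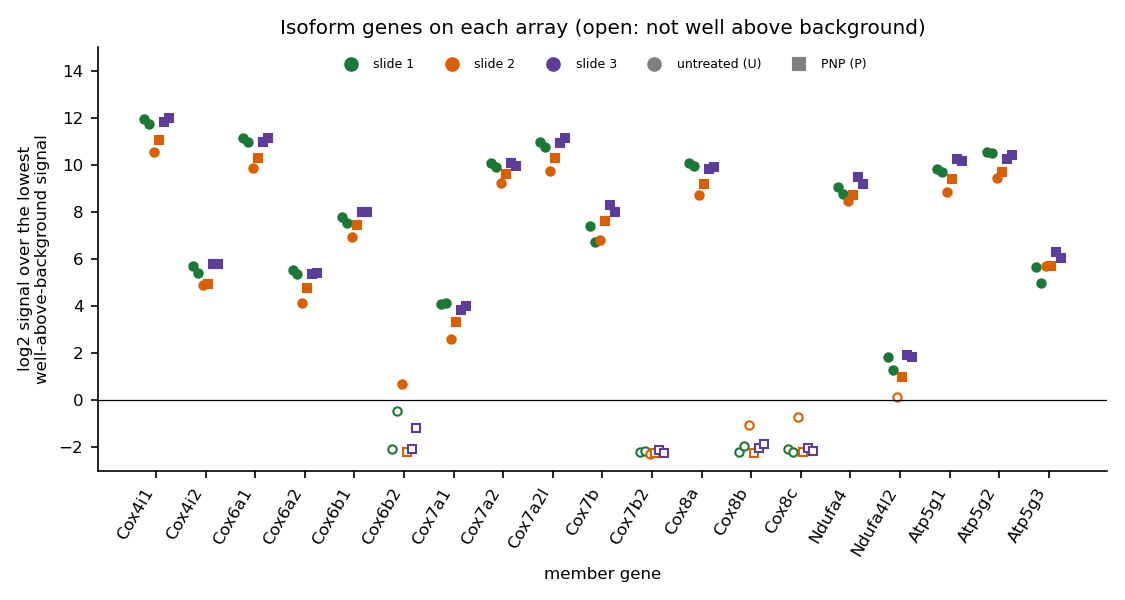
Log2 signal of 19 isoform genes over the lowest signal that was well above background on the same array; colours are slides, circles untreated, squares PNP, and open symbols were not well above background. Cox7b2, Cox8b and Cox8c are open on all 6 arrays and Cox6b2 on all but untreated 3; heights of different genes come from different probes and are not comparable.

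Ndufa4, named as a complex I gene and now assigned to complex IV, gave 4.48, 4.52 and 4.63 untreated and 4.60, 4.63 and 4.62 with PNP. The 6 values lay close together, with a fold change of 0.07 ± 0.19 (log2, SE). Its paralog Ndufa4l2, a hypoxia-responsive gene, was dim, at -2.78, -2.96 and -3.70 untreated and -3.11, -2.94 and -2.73 with PNP. It was above background on 5 of 6 arrays, the exception being untreated 3, and the groups overlapped.

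Complex V, ATP synthase, had 5 members with positive and 12 with negative fold changes. Atp5k, the e subunit of the membrane part that joins dimers, gave 4.83, 4.81 and 4.52 untreated and 4.37, 4.42 and 4.44 with PNP; the groups did not overlap, and the fold change was -0.31 ± 0.20 (log2, SE; limma adjusted p = 0.633). Atp5pb, of the peripheral stalk, gave 4.48, 4.55 and 4.56 untreated and 4.65, 4.75 and 4.89 with PNP, again without overlap, a difference of 0.23 ± 0.19 (log2, SE; limma adjusted p = 0.713). The second Atp5pb probe gave -0.11, the opposite sign, so the direction of this gene differs between its probes.

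Atp5g1, Atp5g2 and Atp5g3 encode the same mature c-ring peptide with different leader sequences. Atp5g1 gave 5.25, 5.47 and 5.03 untreated and 5.27, 5.39 and 5.61 with PNP, a fold change of 0.17. The second Atp5g1 probe gave -0.32, the opposite sign, so its direction differs between probes. Atp5g2 gave 5.95, 6.27 and 5.60 against 5.57, 5.39 and 5.85, a fold change of -0.34. Atp5g3 gave 1.08, 0.76 and 1.86 against 1.61, 1.42 and 1.49, a fold change of 0.27. By their brightest probes the 3 genes had no common sign, and the groups overlapped in each. Of the catalytic subunits, named after their values were seen, Atp5a1 (alpha) had a fold change of -0.16. Atp5b (beta) had 3 probes above background on all arrays, with fold changes of 0.016 for the brightest and -0.17 and 0.59 for the others. The probe at 0.59 gave 3.26, 3.46 and 3.40 untreated and 3.79, 3.87 and 4.23 with PNP, so the probes of this gene disagreed.

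A second probe was above background on all arrays for 20 member genes, and in 6 of these all probes gave a fold change of the same sign. The median gap between the highest and lowest probe of a gene was 0.23 on the log2 scale, and the largest was 0.76, for Atp5b. A sign of a single member near 0 is therefore within what probes of the same gene differ by.

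Over the members, arrays of the same slide were most alike. Across the 81 members, the array most correlated with each array was its partner on the same slide for 6 of 6 arrays. Pearson correlations across member genes, which are not independent replicates and share their arrays' scaling, were 0.995 to 0.997 within a slide and 0.969 to 0.986 between slides. Over all units the nearest array was the slide partner for 2 of 6 arrays, with correlations of 0.979 to 0.984 within slides. Part of the gap rests on 3 members, picked from the same values as the highest on slide 2. Without Cox6c, Ndufb6 and Ndufs5 the count was 5 of 6. The correlations were then 0.994 to 0.997 within slides and 0.975 to 0.995 between them, so that the ranges overlapped. With all members kept, the count was 6 of 6 within complex I and within complex IV, 5 of 6 in complex V and 3 of 6 in complex III. Among 77 mitochondrial ribosomal proteins it was 4 of 6. With normexp and with quantile normalization the members' count was also 6 of 6; scalings that subtract a constant per array leave these correlations as they are.

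Slides accounted for a median of 72.1% of a member's variance over the 6 arrays, and for 50.8% over all units. The groups accounted for 13.5% and 18.2%, and the positions for 18.7% and 21.6%. Slide takes 2 of the 5 degrees of freedom among the arrays, or 40%, and group and position 20% each, so the shares are not on an equal footing; they also overlap, since slides 1 and 3 each hold 1 group. With median centring the members' slide share was 59.6%. The slide share was 66.1% in complex I, 49.5% in complex II, 80.6% in complex III, 71.7% in complex IV and 74.3% in complex V.

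**Figure D3:**
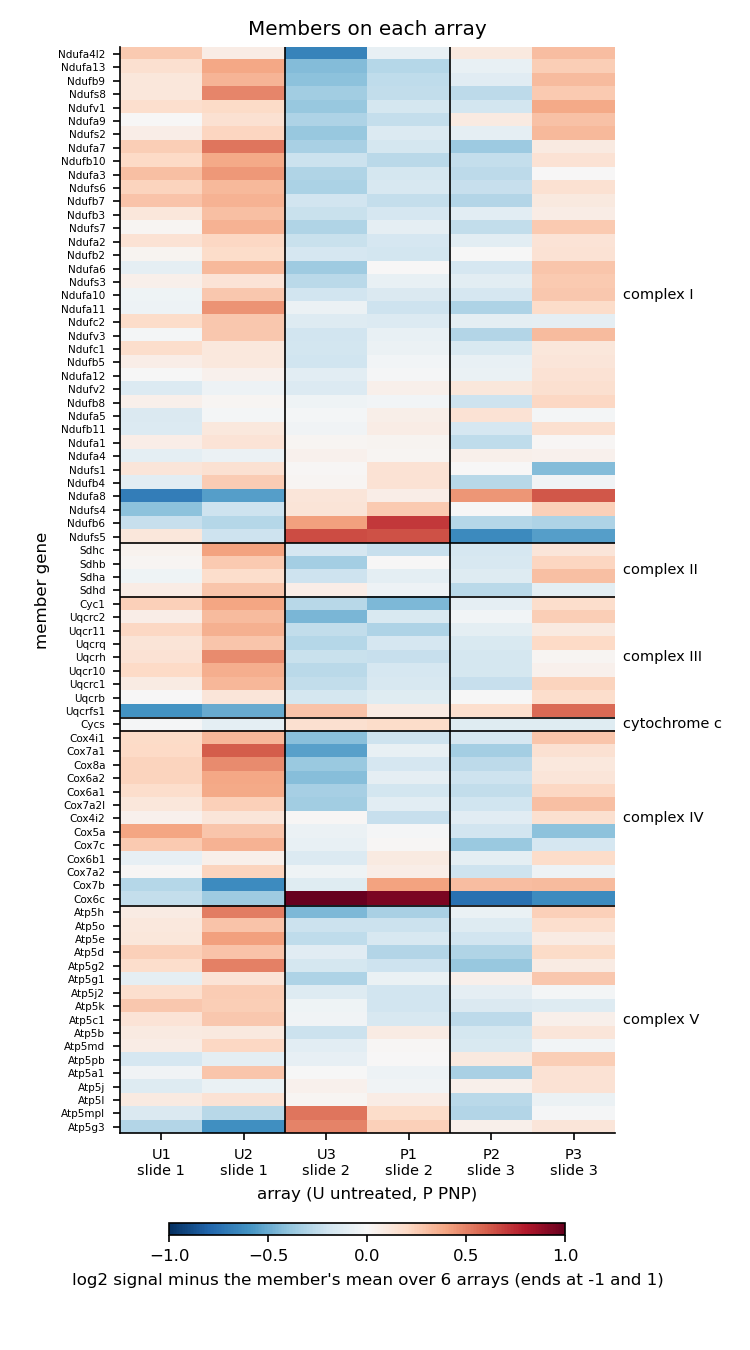
Log2 signal of each of the 81 members on each array, as the difference from the member's mean over the 6 arrays (red higher, blue lower, ends at -1 and 1), ordered by complex and, within it, by the difference of slide 2 from the others. Most members are red on untreated 1, untreated 2 and PNP 3, and blue on untreated 3, PNP 1 and PNP 2. Cox6c, Ndufs5 and Ndufb6 are red on the arrays of slide 2.

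Most members shared their deviations from array to array. The members' median deviation from their own mean was 0.07 on untreated 1, 0.25 on untreated 2, -0.18 on untreated 3, -0.09 on PNP 1, -0.16 on PNP 2 and 0.15 on PNP 3. Over all units these medians ran from -0.10 on untreated 3 to 0.08 on untreated 2. Complexes I, II, III, IV and V each had their highest median on untreated 2 (0.19, 0.27, 0.33, 0.28 and 0.24), an untreated array. This common movement is small under quantile normalization, where the members' medians lay between -0.06 on PNP 2 and 0.08 on untreated 2.

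**Figure D4:**
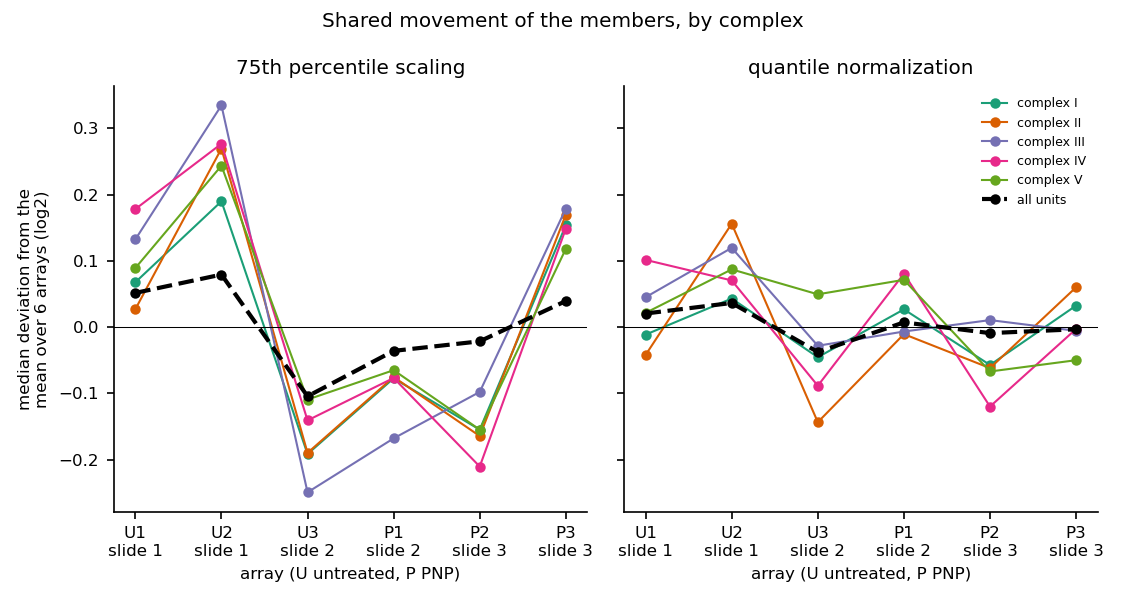
Median deviation of each complex's members, in log2 units, from their mean over 6 arrays, after scaling to the 75th percentile (left) and after quantile normalization (right); the dashed line is the median of all 21476 units. On the left the complexes run together, with complex III from -0.25 on untreated 3 to 0.33 on untreated 2, and on the right they lie within 0.16 of 0.

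Slide 2, which holds an array of each group, was set against slides 1 and 3 with the group in the model, a comparison added after the values were seen. The limma test called 0 of 81 members and 0% of all units at an adjusted p under 0.05. At an unadjusted p under 0.05 it gave 8 members, against 10.7% of all units, so the members' share is near the background. By sign, 61 of 81 members were lower on slide 2 and 20 higher, where 65.2% of all units were lower; the members' median was -0.24 and that of all units -0.12. Under quantile normalization 46 of 81 members and 57.1% of all units were lower, with medians of -0.023 and -0.048, so the members' share is that of all units. The 8 are described below and were chosen for their values.

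Cox6c, a membrane subunit of cytochrome c oxidase, gave 0.32 and 0.20 on slide 1, 1.58 and 1.50 on slide 2, and -0.18 and -0.07 on slide 3. The arrays of slide 2 were alike although untreated 3 and PNP 1 differ in treatment. The difference of slide 2 from the others was 1.47 ± 0.19 (log2, SE; limma unadjusted p = 0.00014, adjusted p = 0.167), and it ranged from 1.37 to 1.59 over the scalings. The PNP fold change of this gene was -0.29 ± 0.51 (log2, SE), the widest SE among the members named.

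Ndufb6, a subunit of the membrane arm of complex I, gave 2.66 and 2.61 on slide 1, 3.31 and 3.60 on slide 2, and 2.61 and 2.58 on slide 3, a slide 2 difference of 0.84 ± 0.18 (log2, SE). Ndufs5, on the intermembrane-space side of complex I, gave 1.89 and 1.57, then 2.43 and 2.42, then 1.15 and 1.23, a difference of 0.97 ± 0.22 (log2, SE). The limma adjusted p was 0.199 for Ndufb6 and 0.201 for Ndufs5. Atp5mpl, a small membrane subunit of complex V, also stood higher on slide 2, by 0.54, with 3.51 and 3.15 there and 2.67 to 2.96 elsewhere.

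Ndufa4l2, another of the 8, was not well above background on untreated 3, an array of slide 2, so its difference is not given. The remaining members were lower on slide 2. Cyc1 gave 5.93 and 6.08 on slide 1, 5.41 and 5.23 on slide 2, and 5.59 and 5.86 on slide 3, a difference of -0.54 that was -0.29 (adjusted p = 0.622; 0.237 to 0.832 over the alternatives) under quantile normalization. Atp5h, of the peripheral stalk, differed by -0.58 by its brightest probe, and by -0.29 and -0.19 by its other probes. Ndufa13, a complex I subunit also known as GRIM-19, differed by -0.54. The limma adjusted p of Cyc1, Atp5h (brightest probe) and Ndufa13 ran from 0.376 to 0.433.

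**Figure D5:**
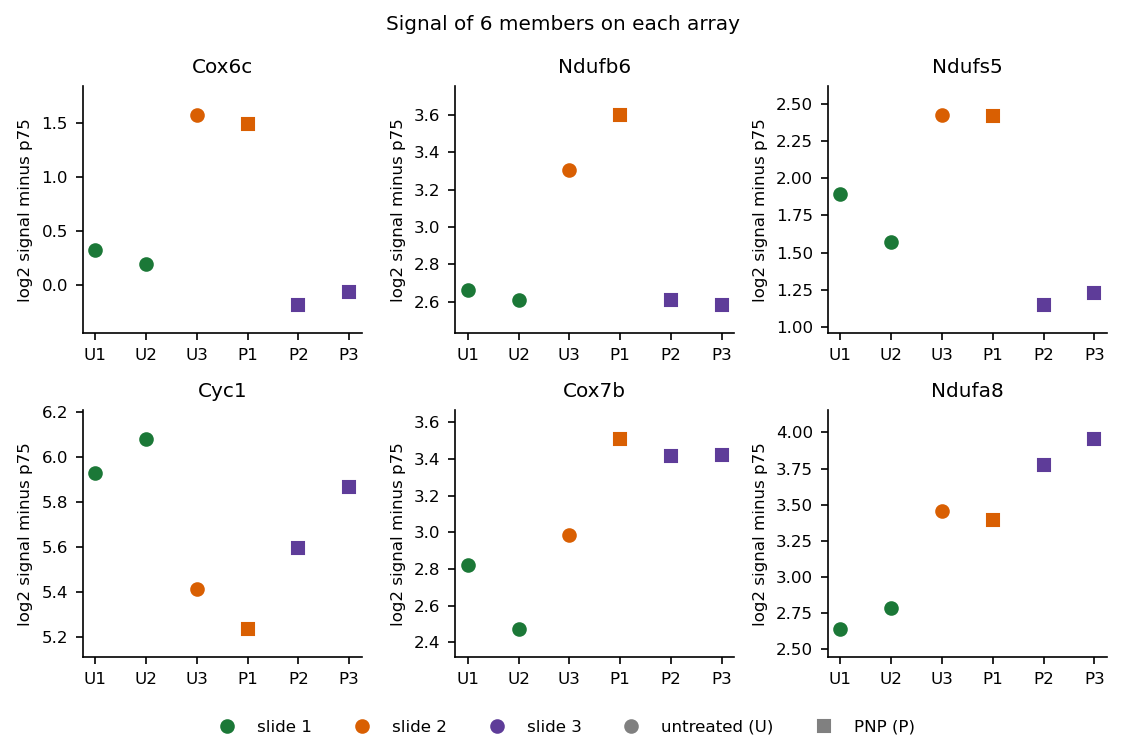
Log2 signal relative to the array's 75th percentile of 6 members on each array; colours are slides, circles untreated (U1 to U3) and squares PNP (P1 to P3). Cox6c, Ndufb6 and Ndufs5 are highest on U3 and P1, which share slide 2, Cyc1 is lowest there, and Cox7b is higher on all PNP arrays.

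Array position was tested with the group in the model. The limma test called 0 of 81 members between positions 2 and 1, against 2.54% of all units (546), and at an unadjusted p under 0.05 it gave 0 members, against 20.5% of all units. By sign 71 of 81 members were higher at position 2, where 56.9% of all units were; the members' median was 0.22 and that of all units 0.07. Under quantile normalization 58 of 81 members and 52.8% of all units were higher, with medians of 0.064 and 0.024.

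Genes that build or serve the chain were taken from lists of assembly factors, regulators and other mitochondrial proteins. The limma test called 0 genes in every list. Of 22 complex IV assembly factors, 2 were higher at an unadjusted p under 0.05 and 0 lower, a share near the 9.93% of all units. Cox15, which makes haem A for cytochrome c oxidase, gave 0.86, 1.21 and 1.13 untreated and 1.55, 2.19 and 2.57 with PNP. The groups did not overlap, and the fold change was 1.04 ± 0.28 (log2, SE; limma adjusted p = 0.293). Coa6, which serves copper delivery to the enzyme, gave 0.80, 0.83 and 1.24 against 1.25, 1.63 and 1.71, a fold change of 0.58 ± 0.23 (log2, SE; limma adjusted p = 0.466).

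The medians of the assembly lists were -0.05 for 14 complex I factors, -0.0020 for 4 complex II factors, -0.13 for 5 complex III factors, -0.13 for the complex IV factors and -0.25 for 5 ATP synthase assembly and inhibitor genes. In the same order, the genes with the smallest p were Ndufaf6 (0.33) and Nubpl (0.24), Sdhaf3 (0.36) and Sdhaf2 (-0.23), Uqcc2 (-0.44) and Bcs1l (-0.19), and Atpaf2 (-0.27) and Tmem70 (-0.24), none at an unadjusted p under 0.05. Ndufab1, the acyl carrier protein of complex I that the symbol rule left out, differed by -0.42 ± 0.43 (log2, SE), and by -0.033 with array position as a block; its positions differed by -1.15.

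Among 15 regulators of mitochondrial biogenesis the median was -0.11, and 1 gene was higher at an unadjusted p under 0.05. This was Yy1, at 2.35, 2.14 and 2.21 untreated and 2.45, 3.17 and 3.01 with PNP. Its fold change was 0.64 ± 0.24 (log2, SE, limma adjusted p = 0.427). Esrra, a nuclear receptor that drives oxidative genes, gave 1.77, 1.52 and 1.60 against 1.13, 1.27 and 1.39, a fold change of -0.36 ± 0.20 (log2, SE; limma adjusted p = 0.581). The groups did not overlap for either gene.

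The median was -0.16 for 13 ubiquinone synthesis genes (Coq4 -0.44, Pdss2 -0.21), -0.13 for 10 carriers, porins and uncoupling proteins (Vdac2 0.56, Ucp2 -0.43), -0.14 for 20 genes of pyruvate dehydrogenase and the citric acid cycle (Pdhx -0.60, or -0.30 with array position as a block; Idh3g -0.32) and -0.03 for 13 chaperones and proteases (Yme1l1 0.39, Afg3l2 0.27). Among 77 mitochondrial ribosomal proteins it was -0.08; Mrps14 was higher (0.70 ± 0.30) and Mrpl49 lower (-0.49 ± 0.20, log2, SE) at an unadjusted p under 0.05, with limma adjusted p of 0.492 and 0.477. No probe was matched to a mitochondrially encoded subunit, which were not analysed here.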

How the data were processed

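The deposited intensity values are each spot's processed signal from Agilent Feature Extraction, version 10.7 per the submitters' processing notes and 11.5.1.1 per the file headers, with the median spot and local background signals. The authors' deposited log2 table of the same arrays follows these signals and has near-identical sorted values in every column, each with a median of 4.74; its log2 scale and its direction, that of the signal (r of 0.998 or above with each array), were read from the values, and no centring by gene was found. Per the labels' protocols, TRIzol RNA was linearly amplified and labelled with Cy3.

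Outlier spots were removed, log2 signals were averaged per probe, and the 75th percentile of an array was taken off its values. Kept were 28204 probes that the well-above-background flag marked on every array of a group, and the brightest probe stood for a gene. Accessions were named through a RefSeq table (GRCm38.p6, names only): 33767 probes had 1 symbol and 22838 none. Groups came from the labels. limma 3.58.1 (R 4.3.3; lmFit, eBayes, two-sided, Benjamini-Hochberg) gave adjusted p-values; it was tested on simulated data. The members, lists and tests were chosen with earlier results of these data known.

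Members named are the 3 with the smallest p in complexes I, III, IV and V, all of complex II, Cycs, and the isoform genes; from each other list the 2 with the smallest p. Alternatives were background correction, scaling, filter, probe rule, slide, position, replicate block, variance model, array weights and leaving out each array. The number of arrays limits the precision.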

Additional observations from a re-analysis of the deposited data

How the results depend on the processing

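No member was called in any alternative but 2. Normexp together with a position term called 1 member (Cox7b, 0.88) and 93 units, and array weights, which gave untreated 1 a weight of 7.75, called 1 member (Ndufa8, 1.01) and 1114 units. Counts of all units were 565 within position 1 and 40 within position 2, where 1 group has a single array that is assumed to vary like the others, 1 at an adjusted p under 0.1 and 0 in the others that were run. The members' median fold change was 0.094 with slide as a fixed block and -0.22 within position 2. The block compares PNP 1 at position 2 with untreated 3 at position 1. Leaving out single arrays gave medians of -0.18 to 0.0042, the highest without untreated 2. Median centring shifted the median of all units from -0.029 to -0.14 and that of the members to -0.20. With it, 70 of 81 members and 65.5% of all units were lower. The position median was 0.064 and the slide 2 median -0.023 under quantile normalization and in the authors' values. The authors' columns have near-identical sorted values, so these settings are nearly the same scaling and not separate checks. Leaving out single arrays, the slide 2 median was -0.34 to -0.099, closest to 0 without untreated 3. The cause of these changes was not tested. Signal over background limits Ndufa4l2 and the 4 isoform genes not past the filter.

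Of 30 named members, 12 kept their sign throughout. Slide as a fixed block sets PNP 1 at position 2 against untreated 3 at position 1, so group and position cannot be told apart in it. With slide as a fixed block the sign turned for Ndufa8 (-0.058), Uqcrfs1 (-0.20), Cox5a (0.042), Cox7c (0.085), Cycs (0.024), Cox4i1 (0.22), Cox6a1 (0.15), Cox6a2 (0.34), Cox7a1 (0.46), Cox7a2 (0.10), Cox7a2l (0.24), Cox8a (0.20), Ndufa4 (-0.030) and Atp5g3 (-0.25). It turned with a position term for Sdha (-0.037) and Sdhb (-0.076); with normexp for Cycs (0.076), Cox4i1 (0.047), Cox7a2l (0.057) and Ndufa4l2 (-0.061); with normexp and a position term for Sdha (-0.035), Sdhb (-0.019), Cycs (0.11) and Ndufa4l2 (-0.11); and with array weights for Ndufa4l2 (-0.090). It turned under quantile normalization, and in the authors' values of nearly the same scaling, for Cycs (0.020) and Cox7a2l (0.023). It also turned with the percentile over bright probes for Cycs (0.024) and Cox7a2l (0.060), and with median centring for Sdha (-0.063), Sdhb (-0.073) and Ndufa4 (-0.039). With the median of a gene's probes it turned for Sdha (-0.028), Sdhb (-0.088), Cycs (0.13) and Atp5g1 (-0.073). Within position 1 it turned for Sdha (-0.0019), Sdhb (-0.0013) and Atp5g3 (-0.046), and within position 2 for Sdha (-0.073), Sdhb (-0.15), Cycs (0.13) and Atp5g1 (-0.032). Leaving out single arrays gave ranges that cross 0 for Cox4i1 (-0.29 to 0.083), Cox6a1 (-0.35 to 0.0042), Cox6a2 (-0.36 to 0.043), Cox7a1 (-0.49 to 0.081), Cox7a2l (-0.18 to 0.12), Cycs (-0.14 to 0.033), Ndufa4l2 (-0.058 to 0.40), Sdha (-0.087 to 0.15) and Sdhb (-0.12 to 0.18).

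With replicate number as a block, 0 members and 0 units were called and the members' median was -0.089. Same-numbered arrays' deviations correlated at -0.41, -0.55 and -0.41 over all units, and at -0.43, 0.18 and -0.62 over the members. Arrays of the same number always lay at opposite positions, so these correlations cannot tell whether the numbers pair the samples. The numbers were not taken to pair them.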
